A study of Rattus norvegicus with 4 samples.

Results

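The 144 sequences described here are overlapping small RNA fragments joined to novel_7652_x249 through identical stretches of 20 bases, out of 3129 sequences in the deposited raw tag table. Joining was transitive, so 2 members need not share a stretch with each other, and it used the sequences alone, not their counts. The RNA came from RNA immunoprecipitation (RIP) on the CA1 region of the hippocampus, the field of pyramidal neurons known for its sensitivity to ischemia, in male Wistar rats of 7 to 8 weeks. Each of the 4 groups had 1 library: Sham, a sham control; tGCI26h, transient global cerebral ischemia at 26 h; HPC0h, at 0 h, whose abbreviation is not spelled out in the labels; and IgG, the control library. The series title names Piwil2 as the bound protein, and no label of a single library repeats it. All 4 labels give the same strain, age and tissue, and no genotype or drug is stated. The design text counts 3 replicates per group, while 1 library per group was analysed here, and whether it pools animals is not stated. Fragments of 21 to 39 nt hold no marker of neurons, so the labelled tissue could not be checked. IgG's column carries its own name, whereas the other column names match their titles only in part, so naming the 3 Piwil2 libraries depends on this.

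Ribosomal RNA (rRNA) is the structural and catalytic RNA of the ribosome, and 18S rRNA is the one in the small subunit, where messenger RNA is decoded. From general knowledge of this conserved RNA, the assembled sequence of the family belongs to its 3′ part, where a long helix carries part of the decoding centre. That name is provisional, because no rRNA sequence was at hand to align with. RefSeq names the rat gene Rn18s, and its sequence was not used here. None of 1143 RefSeq rat miRNA entries and none of 33469 RefSeq promoter windows shared 20 bases with a member. Piwil2 is a PIWI protein, a partner of piRNAs, which protect the germ line against transposons. Primary piRNAs tend to begin with U (T in the deposited letters), and their amplification partners tend to carry A at base 10. Fragments of abundant RNAs such as rRNA are common in small RNA libraries whatever the protein, so the IgG library was the background throughout.

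The members assembled into 1 sequence of 164 bases, and positions below are counted from 1 at its 5′ end. The most abundant member in tGCI26h, HPC0h and IgG was novel_7652_x249, at positions 114 to 152. From the 5′ part 5 overlapping sequences are shown, whose tags did not all move alike. Of these, novel_6940_x272 and novel_5117_x364 kept the same order of libraries. The only member with a catalogued piRNA name, rno_piR_000119, is included, with at most 8 tags in a library, too few to compare. Capitals mark what the 5 share.
novel_3691_x500: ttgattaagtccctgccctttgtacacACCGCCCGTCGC
novel_6940_x272: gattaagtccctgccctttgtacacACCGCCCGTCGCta
novel_5117_x364: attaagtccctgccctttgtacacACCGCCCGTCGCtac
novel_11916_x165: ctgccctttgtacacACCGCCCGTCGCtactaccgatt
rno_piR_000119: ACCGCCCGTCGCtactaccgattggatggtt
The middle is shown by its most abundant pair, with their shared stretch in capitals.
novel_5684_x328: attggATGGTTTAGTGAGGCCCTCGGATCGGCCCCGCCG
novel_12182_x162: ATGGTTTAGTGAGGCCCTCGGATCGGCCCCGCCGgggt

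Of the 144 members, 124 were exact stretches of the assembled sequence, 17 differed at 1 base, 2 at 2 bases and 1 at 3 bases. They began at 52 positions and ended at 48, and 26 had the longest listed length, 39 nt. By where they lie, in a division made after seeing the data, 37 formed an upstream block (positions 1 to 60), 93 a downstream block (positions 95 to 164) and 14 a thin middle (positions 38 to 117). The middle lies over a GC-rich stretch: positions 61 to 113 were 75.5% G or C, against 51.7% for positions 1 to 60 and 53.8% for novel_7652_x249. The downstream block as a whole, positions 95 to 164, which partly overlap that stretch, was 60% G or C.

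Depth differed between libraries. The HPC0h library held 830634 listed tags and IgG 668857, whereas tGCI26h held 222511 and Sham 159215. With depth, the number of members listed rose from 74 in Sham to 108 in tGCI26h, 122 in IgG and 140 in HPC0h, with 70 listed in all 4. The lowest value in the table is 2, and a blank cell is called not listed, since 98 of the members' 132 blanks are filled in the normalized table the authors deposited, with values of up to 24. Counts were scaled to a fixed total of listed tags (CPM, with 1000000 tags as the total), and ratios of CPM carry exact 95% intervals. These intervals cover counting error only, because PCR copies without molecular identifiers are not independent molecules. There is no replicate, so no p-value is given and each difference is between libraries.

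Counts of nested sequences were not independent. In 722 pairs where 1 member lies wholly inside another, the shorter never had more tags than the longer in any library, and the same held for all 11568 such pairs of the table. Members that begin at position 107 show the pattern. Lengths of 24, 25, 26 and 27 nt each had 13 tags in tGCI26h and 10 in HPC0h, with 3 in IgG, and none was listed in Sham. From 31 to 37 nt the count stayed at 33 in tGCI26h and ran from 11 to 15 in Sham, from 70 to 85 in HPC0h and from 116 to 178 in IgG. At 39 nt novel_93_x11490 reached counts of 175 in Sham, 282 in tGCI26h and 572 in HPC0h, with 933 in IgG. Counts thus never fell with length, and lines with equal counts cannot be told apart from 1 set of tags listed on several lines. Whether tags of a short sequence were counted again for the longer ones was not tested. Because of this, sums are also given over the 43 members that lie inside no other listed sequence, an alternative chosen after seeing the data, and intervals of sums over nested members are too narrow.

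**Figure D1:**
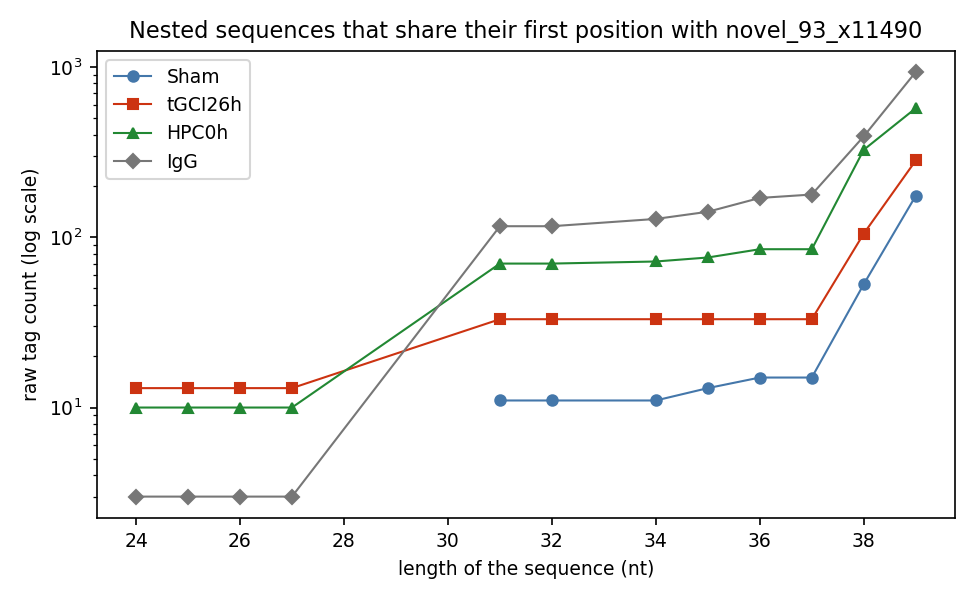
Raw tag counts (log scale) of the substitution-free members that start at position 107, by length in nt, with 1 line per library. In every library the count stays level or rises with length, reaching 175 (Sham), 282 (tGCI26h), 572 (HPC0h) and 933 (IgG) at 39 nt; Sham has no point below 31 nt because those sequences are not listed there.

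The family took a larger share of tags in the IgG control than in any Piwil2 library. Its share of listed tags was 1.89% for Sham (95% interval 1.82 to 1.96), 2.48% for tGCI26h (2.42 to 2.55), 1.91% for HPC0h (1.88 to 1.94) and 3.35% for IgG (3.31 to 3.4), from 3012, 5526, 15858 and 22422 tags. Relative to IgG, Sham was 1.77-fold lower (1.71 to 1.84), tGCI26h 1.35-fold (1.31 to 1.39) and HPC0h 1.76-fold (1.72 to 1.79). Every alternative run left all 3 ratios below 1. Over the members inside no other sequence, with totals of such sequences, the 3 ratios over IgG were 0.559, 0.667 and 0.546.

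Among the Piwil2 libraries the family stood highest in tGCI26h. Its ratio to Sham was 1.31 (1.26 to 1.37), and HPC0h was 0.769 of tGCI26h (0.746 to 0.793). HPC0h and Sham had a ratio of 1.01 (0.971 to 1.05), which the counts could not tell from 1. The comparisons with HPC0h depend on 1 other family, that of novel_88_x12235, which held 52.9% of tags in HPC0h against 41.4% in IgG and less in tGCI26h (31.5%) and Sham (33.2%). With its tags left out of the totals, HPC0h over tGCI26h turned to 1.12 and HPC0h over Sham became 1.43. With those totals every HPC0h ratio of CPM below is multiplied by 1.45 over tGCI26h, by 1.42 over Sham and by 1.25 over IgG. The CPM values, their ratios and the calls below all use the listed totals. Shares of the family's own tags and balances between members do not.

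Single members were called higher or lower where they had 10 tags or more in either library, differed 2-fold or more and had an interval clear of 1. In tGCI26h over Sham, 72 members had enough tags, of which 37 were higher and 5 lower, while of all measured sequences 27.2% were higher and 13.9% lower. Of those 37, 15 were not listed in Sham, the shallowest library. Others, such as novel_381_x3491 with 7 tags in Sham and 76 in tGCI26h, were measured through tGCI26h alone. Members measured that way could not be called lower, so the calls are tilted towards higher. In every comparison, a member with fewer than 10 tags in 1 library was measured only through the other. The same rule gave the table's shares. In HPC0h over tGCI26h 11 of 101 were higher and 25 lower (table: 21.0% higher, 21.0% lower). Of the 11 higher, 4 were not listed in tGCI26h. With totals without the family of novel_88_x12235 these calls became 20 and 16. In HPC0h over Sham 25 of 99 were higher and 7 lower (table: 25.4% and 15.9%), or 43 and 4 with those other totals. Of those 25, 14 were not listed in Sham. The other totals raise the HPC0h ratio of every sequence, and the table's shares with them are not given here. The median log2 ratio of measured members was 1.02 for tGCI26h over Sham, against 0.35 for the table, and -0.39 for HPC0h over tGCI26h, against 0.06.

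Over IgG the calls leaned downward in Sham. There 7 of 81 measured members were higher and 44 lower, where the table had 12.5% higher and 28.6% lower. Of those 44, 11 were not listed in Sham. Others, such as novel_381_x3491 with 7 tags in Sham and 347 in IgG, were measured through IgG alone. For tGCI26h the calls were about even, 21 higher and 23 lower of 94 (table: 16.6% and 19.5%). Of those 23, 5 were not listed in tGCI26h. For HPC0h they were 18 higher and 32 lower of 103 (table: 17.8% and 17.1%), and 2 of the 18 were not listed in IgG. With totals without the family of novel_88_x12235 the calls were 21 and 14. Those totals raise the HPC0h ratio of every sequence, and the table's shares with them are not given here. The median log2 ratios over IgG were -1.32 in Sham, -0.34 in tGCI26h and -0.53 in HPC0h, against -0.54, -0.22 and -0.11 for the table. Because members overlap, these counts do not stand for separate molecules. Among the members inside no other sequence, tGCI26h exceeded Sham for 15 of 33 and was below it for 1, where 30.6% and 13.7% of such sequences in the table were.

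Reads clustered at a few starts, and the balance between them differed by library. Sequences starting at 107 to 109 held 44.3% of the family's tags for Sham, 31.1% for tGCI26h, 25.4% for HPC0h and 37.3% for IgG. The start at 114, almost all of it novel_7652_x249, held 13.0%, 21.3%, 26.1% and 21.5% in the same order. Sham therefore leaned to starts 107 to 109, and HPC0h to 114.

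**Figure D2:**
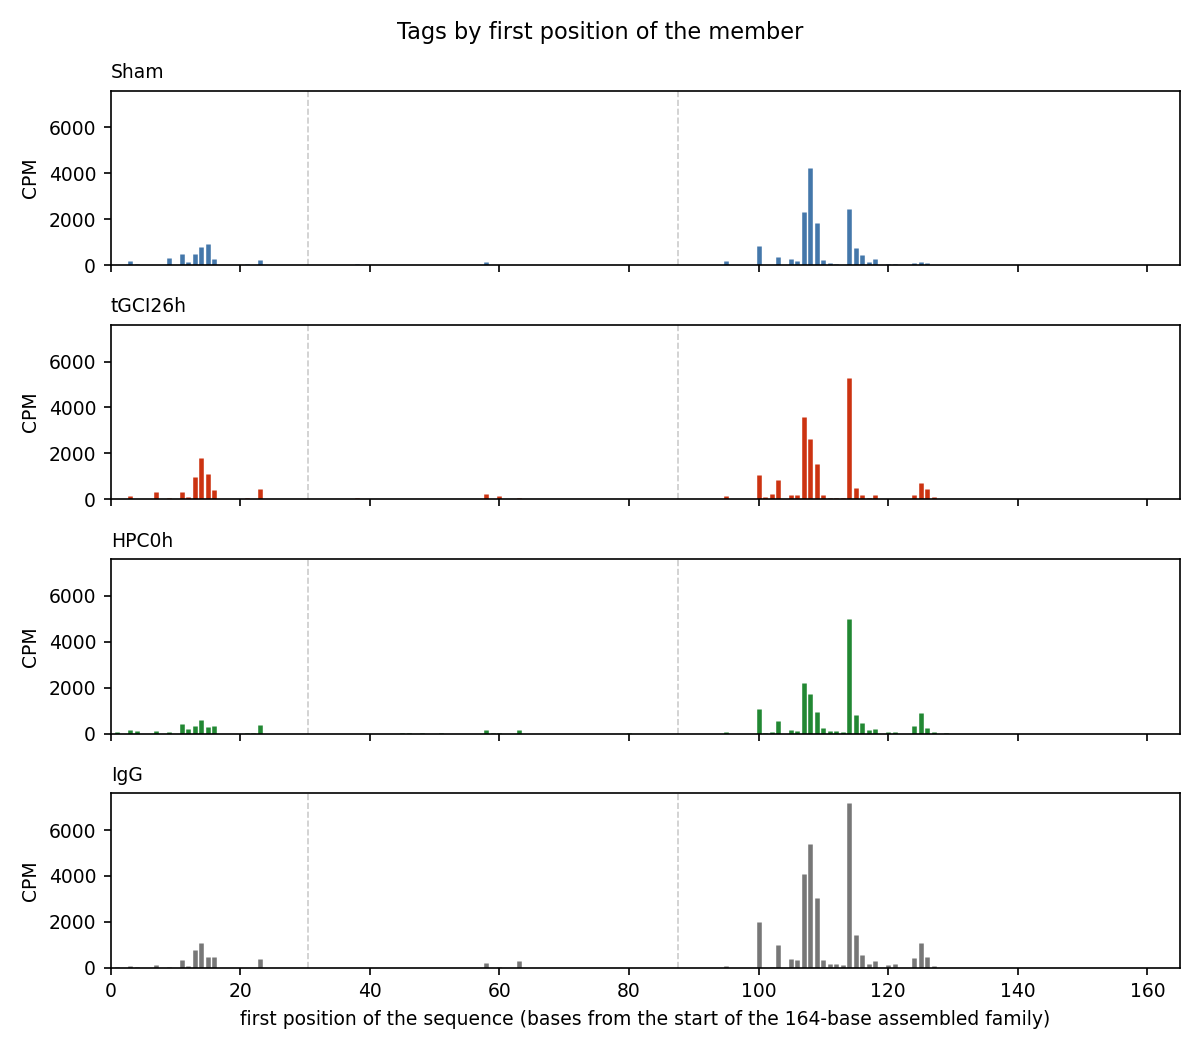
CPM (vertical axis, linear and shared) summed by the first position of the member along the 164-base assembled sequence, with 1 panel per library; dashed lines part the upstream, middle and downstream starts. Start 108 is the highest bar in Sham (4246 CPM) and start 114 in tGCI26h (5285), HPC0h (4977) and IgG (7194).

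The sequence novel_7652_x249 (positions 114 to 152) had 391 tags or 2456 CPM in Sham, 1172 or 5267 CPM in tGCI26h and 4104 or 4941 CPM in HPC0h, with 4768 or 7129 CPM in IgG. It was lowest in Sham and highest in IgG, with tGCI26h and HPC0h between. The ratio was 2.15 for tGCI26h over Sham (1.91 to 2.41), which fell to 1.86 with TMM scaling, and 0.938 for HPC0h over tGCI26h (0.879 to 1.00). Set against IgG, Sham was 2.90-fold lower (2.62 to 3.23), tGCI26h 1.35-fold and HPC0h 1.44-fold.

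Shifted upstream by 6 bases, novel_359_x3664 (108 to 146) ran the other way. It had 613 tags (3850 CPM) in Sham, 435 (1955 CPM) in tGCI26h and 928 (1117 CPM) in HPC0h, with 2937 (4391 CPM) in IgG. Sham stood nearest to IgG here, and HPC0h was 3.45-fold lower than Sham (3.11 to 3.82). Set against novel_7652_x249, its count was 1.57 times as high in Sham, 0.371 in tGCI26h and 0.226 in HPC0h, with 0.616 in IgG. Relative to Sham, this balance was 4.22-fold lower in the tGCI26h library (3.56 to 5.01) and 6.93-fold lower in HPC0h (5.98 to 8.04). Neither member lies inside another listed sequence, and the balance is free of library totals.

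The neighbour novel_236_x5259 (109 to 147) was like novel_359_x3664, at 1740 CPM in Sham, 1312 in tGCI26h and 759 in HPC0h, with 2836 in IgG. By contrast, novel_93_x11490 (107 to 145) had 1099, 1267, 689 and 1395 CPM, so that tGCI26h was not below Sham. For novel_5654_x329 (100 to 137) the Piwil2 libraries were close, at 842, 971 and 1012 CPM, and all below the 1981 CPM of IgG. The pair at the next starts, novel_11770_x167 (115 to 153) and novel_16386_x124 (116 to 153), was lowest in tGCI26h: 512 CPM against 754 in Sham, 804 in HPC0h and 1429 in IgG for the former, and 193 against 421, 461 and 559 for the latter. Because novel_16386_x124 lies inside novel_11770_x167, the pair may hold the same tags and does not show the order independently. A shift of 1 base from 114 to 115 thus went with a different order of libraries. All 12 leading members together held 69.3% of family tags for Sham, 60.1% for tGCI26h, 60.6% for HPC0h and 68.1% for IgG.

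**Figure D3:**
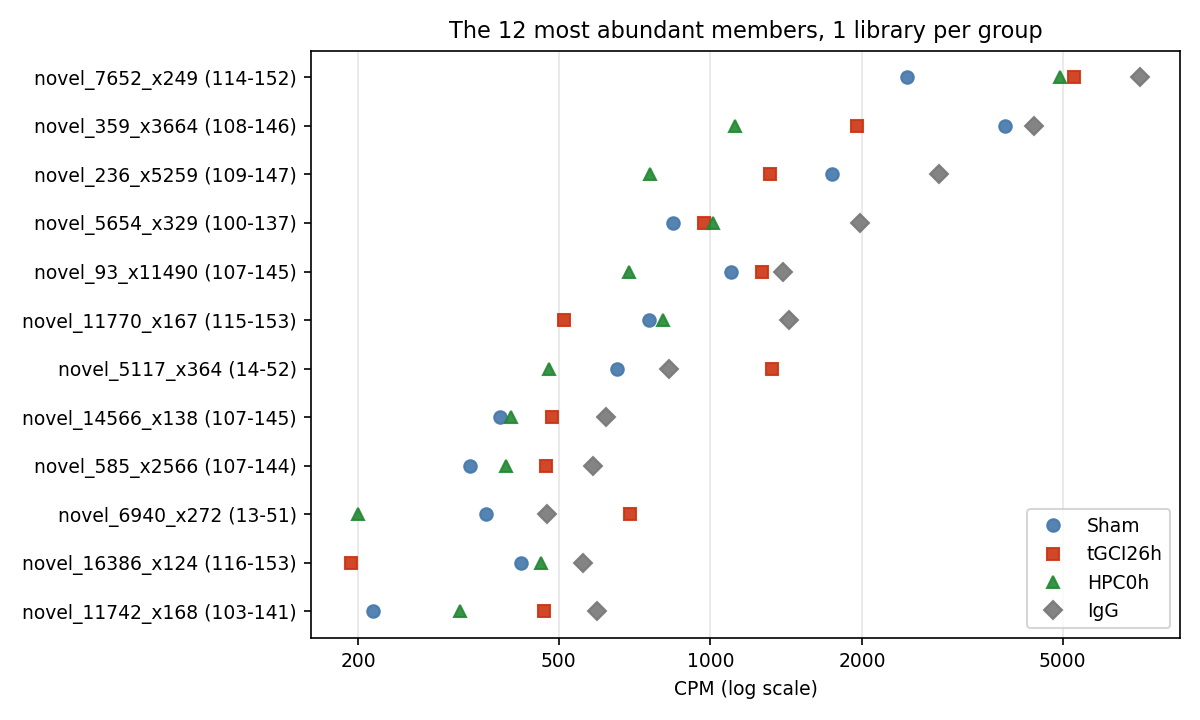
CPM (log scale) of the 12 members with the highest mean CPM, with their first and last positions in brackets and 1 point per library. IgG is the highest point for 10 of the 12, the exceptions being novel_5117_x364 and novel_6940_x272, where tGCI26h is highest.

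At the 3′ end of the family, sequences starting at 124 to 129 were scarce in Sham. They had 49 tags there (308 CPM), 327 in tGCI26h (1470 CPM) and 1296 in HPC0h (1560 CPM), with 1369 in IgG (2047 CPM). Sham stood apart from the other 3 libraries: tGCI26h was 4.775-fold higher (3.53 to 6.59), HPC0h 5.07-fold higher (3.81 to 6.89), and Sham itself was 6.65-fold lower than IgG (5.00 to 9.03). HPC0h over tGCI26h was 1.06 (0.9397 to 1.20). The main sequences were novel_381_x3491 (125 to 163), with 44.0, 342, 396 and 519 CPM, and novel_4865_x383 (126 to 164), with 75.4, 418, 169 and 369 CPM, in Sham, tGCI26h, HPC0h and IgG. Of the 18 members with these starts, 6 were measured in tGCI26h over Sham and 12 in HPC0h over Sham. Of those, 4 and 10 reached the count minimum in the first library alone. They are among the members counted above, and their calls are not given apart.

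In the upstream block 1 Piwil2 library, tGCI26h, stood above IgG. Its 37 members summed to 3831 CPM in Sham, 5775 in tGCI26h and 2994 in HPC0h, with 3908 in IgG. tGCI26h was 1.48-fold higher than IgG (1.38 to 1.58), Sham could not be told from IgG (ratio 0.980, 0.896 to 1.07), and HPC0h was 1.31-fold lower (1.24 to 1.38). For the downstream block all 3 were below IgG, Sham by 1.95-fold, tGCI26h by 1.56-fold and HPC0h by 1.85-fold. Over members inside no other sequence, the ratio of upstream to downstream tags exceeded that of IgG 1.92-fold in Sham (1.72 to 2.13), 2.52-fold in tGCI26h (2.31 to 2.73), and for HPC0h 1.497-fold (1.40 to 1.60). All 3 Piwil2 libraries thus leaned more to the upstream block than IgG did. These ratios share the IgG library.

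**Figure D4:**
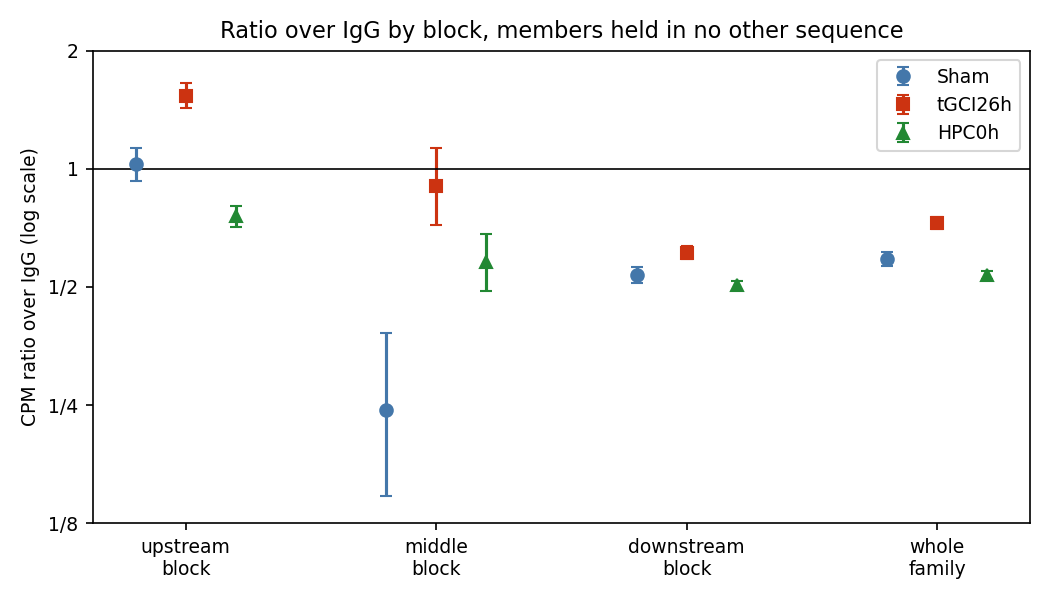
Ratio of CPM over IgG (log scale) for members inside no other listed sequence, by block, with exact 95% intervals for counting error and 1 point per Piwil2 library; the line marks a ratio of 1. Upstream, tGCI26h lies above the line at 1.54 and Sham on it, and every downstream point lies between 0.505 and 0.611.

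Within the upstream block novel_5117_x364 (14 to 52) was the most abundant, at 653 CPM in Sham, 1326 in tGCI26h and 478 in HPC0h, with 828 in IgG. tGCI26h was 2.03-fold above Sham (1.62 to 2.56), and HPC0h 2.77-fold below tGCI26h (2.38 to 3.23). Next came novel_6940_x272 (13 to 51), in the same order, with 358, 692, 199.8 and 474 CPM. Flat by comparison, novel_3691_x500 (11 to 49) had 371, 243, 343 and 293 CPM. At the other edge of the block, novel_11916_x165 (23 to 60) had 207 CPM in Sham but 431 in tGCI26h and 386.5 in HPC0h, with 384 in IgG.

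Of the 81 members measured in all 3 Piwil2 libraries, 1 was called higher than IgG in each (1.23%), near the 1.59% of the whole table. It was novel_18693_x112 (9 to 46), with counts of 48 in Sham, 14 in tGCI26h and 55 in HPC0h, with 16 in IgG, which made it 12.6-fold (7.03 to 23.8), 2.63-fold (1.19 to 5.75) and 2.77-fold (1.56 to 5.18) higher. Another 5 (6.17%) were lower in all 3, against 5.02% of the table. They were novel_12182_x162, novel_202_x5935, novel_3344_x549, novel_3420_x538 and novel_9650_x200. Of these, novel_3344_x549 lies inside novel_202_x5935. Both had 2, 7, 20 and 50 tags in Sham, tGCI26h, HPC0h and IgG, so they may be 1 set of tags. In Sham all but novel_3420_x538 fell short of the count minimum and were measured through IgG alone. The same held in tGCI26h for novel_202_x5935, novel_3344_x549 and novel_9650_x200. In the middle block, novel_12182_x162 (63 to 100) had 2, 16, 121 and 205 tags in Sham, tGCI26h, HPC0h and IgG. Against IgG, Sham was 24.4-fold lower (6.67 to 203), tGCI26h 4.26-fold and HPC0h 2.10-fold. That last ratio, 0.475, rose to 0.524 with TMM factors, 0.523 with median-of-ratios factors and 0.592 without the family of novel_88_x12235 in the totals, which ended the call. Also ended were the calls of novel_9650_x200 in HPC0h with those last totals (0.419 to 0.522) and of novel_3420_x538 in Sham with median-of-ratios factors (0.459 to 0.531). Calls in opposite directions over IgG in a pair of Piwil2 libraries occurred in 5 of 94 members (5.32%), against 6.70% of the table.

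The catalogued piRNA name in the family, rno_piR_000119, belongs to a 31-nt sequence (38 to 68) with counts of 4 in Sham, 8 in tGCI26h and 2 in HPC0h, with 4 in IgG. It did not reach the count minimum in any library. The share of members beginning with T did not set the Piwil2 libraries as a group apart from IgG. Members beginning with T held 27.8% of family tags for Sham, 38.1% for tGCI26h, 43.6% for HPC0h and 35.3% for IgG, and novel_7652_x249, which begins with T, held 13.0%, 21.2%, 25.9% and 21.3%. Sham lay below IgG and the other Piwil2 libraries above it. An A at base 10 was rare, at 3.72%, 1.502%, 2.74% and 2.27% of family tags. Outside the family it held 36.5%, 36.1%, 48.4% and 48.4% of tags, and without the family of novel_88_x12235 as well 11.8%, 14.4%, 15.9% and 20.4%.

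Most tags were of full listed length. Members of 39 nt held 73.5% of family tags for Sham, 69.9% for tGCI26h, 64.4% for HPC0h and 71.0% for IgG, above the 43.9% to 49.4% in the rest of the table. Since 39 nt is the longest listed, longer fragments would not be seen. Short members were highest in tGCI26h. The 28 members of up to 33 nt had 201 CPM in Sham, 1281 in tGCI26h and 530 in HPC0h, with 644 in IgG. Of the 13 measured in tGCI26h over Sham, 11 were not listed in Sham and reached the minimum through tGCI26h alone. The calls of the short members are part of the counts above and are not given apart. These are nested lines that may hold the same tags. For 1 line of them, novel_10254_x189 (102 to 130, 29 nt), 18 tags were listed in tGCI26h and 21 in HPC0h, with 3 in IgG, none in Sham. Over IgG it reached the minimum through the Piwil2 library alone. The same held for 11 of the 18 short members measured over IgG in tGCI26h, and for 11 of 18 in HPC0h. Their folds over IgG are therefore not given.

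Several members carried a substitution, written as the assembled base, its position and the member's base. The most abundant was A145G in novel_14566_x138 (107 to 145), with counts of 61 in Sham, 108 in tGCI26h and 334 in HPC0h, with 415 in IgG. Its shorter neighbour novel_585_x2566 (107 to 144) ends before that base and had 86.9%, 97.2%, 97.6% and 94.2% as many tags. The change therefore lies at the last base of a line whose count hardly exceeds that of the line without it.

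In 10 members C133T lay inside the sequence. At start 108 it made up 2.08% of tags in Sham (novel_1718_x1023 beside novel_359_x3664; 1.11 to 3.53), 8.61% in tGCI26h (6.25 to 11.5) and 10.8% in HPC0h (8.95 to 12.8), with 7.38% in IgG (6.49 to 8.35). At start 109 (novel_18112_x114 beside novel_236_x5259) the shares were 3.82%, 8.46%, 11.5% and 6.46%. At start 107 (novel_1493_x1153 beside novel_93_x11490) they were 8.14% in tGCI26h and 7.74% in HPC0h, with 6.89% in IgG, and the substituted sequence was not listed in Sham. At each of these starts the substitution was thus lowest in Sham. At start 109, with 11 substituted tags in Sham, this was less clear. The interval of Sham (1.92 to 6.73) overlapped those of tGCI26h (5.65 to 12.1) and IgG (5.43 to 7.62).

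The upstream substitution A18C was the reverse in its main pair. At start 15, novel_16529_x123 with A18C had counts of 91 in Sham, 121 in tGCI26h and 10 in HPC0h, with 67 in IgG, beside 48, 119, 201 and 240 for novel_18593_x112 without it. The substituted share was 65.5% in Sham (56.9 to 73.3), 50.4% in tGCI26h (43.9 to 56.9) and 4.74% in HPC0h (2.30 to 8.54), with 21.8% in IgG (17.3 to 26.9). At start 12 the order differed: novel_15435_x131 with A18C made up 45.8% in Sham, 90.9% in tGCI26h and 87.9% in HPC0h, with 74.4% in IgG beside novel_11088_x176, from 24, 22, 149 and 39 tags. At start 14 novel_11410_x171 made up 72.7% in Sham, 58.0% in tGCI26h and 24% in HPC0h, with 53.0% in IgG beside novel_2611_x694, from 11, 69, 25 and 66 tags. The order at starts 14 and 15 was thus the same, and start 12, with few tags in Sham and tGCI26h, was the exception. Summed, the 6 members with A18C were 3.46-fold higher than IgG in Sham (2.71 to 4.41) and 3.66-fold higher in tGCI26h (2.94 to 4.56), with a ratio of 0.821 in HPC0h (0.652 to 1.03). Most of this came from novel_16529_x123, which had 91 of the 125 tags in Sham and 121 of the 185 in tGCI26h. Without it the ratios over IgG were 1.68 in Sham (1.09 to 2.53), 2.26 in tGCI26h (1.61 to 3.17) and 1.37 in HPC0h (1.04 to 1.82). Of the 4 members with A18C measured over IgG, 1 was called higher and 0 lower in Sham (table: 12.5% and 28.6%). In tGCI26h 3 were higher and 1 lower (table: 16.6% and 19.5%), and in HPC0h 1 and 3 (table: 17.8% and 17.1%). These lines are few and overlap, so the calls do not stand for separate molecules. Whether substituted members come from the rat, from other gene copies or from sequencing was not tested, and their sequences are not printed.

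**Figure D5:**
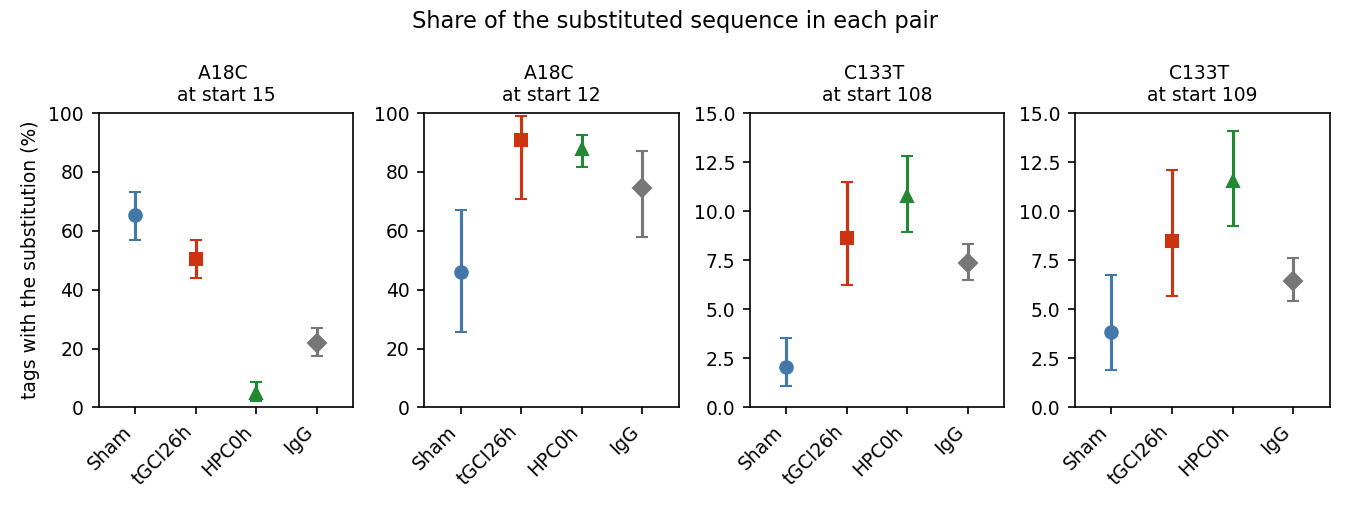
Percent of tags with the substitution in 4 pairs of sequences of the same start, with exact 95% binomial intervals for counting error and 1 point per library; A18C panels run from 0 to 100% and C133T panels from 0 to 15%. At start 15 A18C falls from 65.5% in Sham to 4.74% in HPC0h, whereas C133T is lowest in Sham at both starts drawn.

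A pair of other families also thought to be 18S rRNA fragments showed where this one differs. The family of novel_9668_x200, with 74 members, made up 1.895% of the IgG library, 2.27% of Sham, 2.41% of tGCI26h and 1.69% of HPC0h. Set against it, the family of novel_7652_x249 stood lower over IgG, by 2.12-fold for Sham (2.01 to 2.24), 1.72-fold for tGCI26h (1.65 to 1.80) and 1.56-fold for HPC0h (1.51 to 1.61). The family of novel_13901_x144, with 71 members, made up 0.503% of Sham, 1.11% of tGCI26h, 0.808% of HPC0h and 1.03% of IgG. Against that one, it was 1.16-fold higher over IgG in Sham (1.07 to 1.26), 1.46-fold lower in tGCI26h and 1.38-fold lower in HPC0h. The family of novel_9668_x200 was itself above IgG in Sham (ratio 1.20, 1.16 to 1.24) and tGCI26h (1.27, 1.23 to 1.32) and below it in HPC0h (0.889, 0.868 to 0.911).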

How the data were processed

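Per the labels' protocols, total RNA was ligated to adaptors, reverse transcribed, amplified and size-selected for inserts near 30 nt, then run on a HiSeq. The tools listed, per the submitters' processing notes, are cutadapt 1.9.3 and Novoalign 3.02.12, of unstated use. The aligner settings, genome build and piRNA catalogue are not given in the sources used here. Raw tag counts, per the file headers, are what the authors deposited in the first table, and all comparisons used them. The authors' second table holds normalized tag counts, whole numbers of unstated scaling, treated as a score and used as an alternative. In this copy, 40 lines of the raw and 46 of the normalized table were empty, and no value column was left unused.

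Families were joined by 20 shared bases with Python 3.11.15. Blanks were taken as 0 in sums and ratios, without a fold for any 1 sequence that a library did not list; medians of log2 ratios added a pseudocount of 1. Intervals are exact (Clopper-Pearson, 95%, SciPy 1.17.1), with an exact conditional interval for a ratio of ratios. Alternatives changed the scaling (TMM by edgeR 4.0.16, median of ratios, totals without the family of novel_88_x12235), the count minimum, the fold, the joining length and the treatment of nested sequences. Named members were novel_7652_x249, the 12 with the highest mean CPM, the catalogued piRNA, up to 4 called in each direction per comparison, the ends of the assembled order and the edges of the joining rule; the others named here were singled out after their values were seen. The members and lists were chosen with earlier results of these data known. The calling steps were tested on simulated counts. No gene or genome position is given, and the letters of the 3′ part of the family are not reported here.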

Additional observations from a re-analysis of the deposited data

Results flagged for a closer look

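In 5 of 94 members measured in 2 or more comparisons with IgG (5.32%, against 6.70% of the whole table) 2 of the Piwil2 libraries differed from IgG in opposite directions, each past the 2-fold call; the difference between the libraries was not tested beyond each ratio's counting interval. The sequence novel_13239_x150 (positions 7 to 45) had counts of 3 in Sham, 74 in tGCI26h and 56 in HPC0h, with 69 in IgG, that is 0.183 of IgG in Sham and 3.22 times IgG in tGCI26h. In the middle block novel_6873_x275 (60 to 98) had 30 tags in tGCI26h and 2 in HPC0h, with 13 in IgG and was not listed in Sham, with ratios of 6.94 in tGCI26h and 0.124 in HPC0h. Among sequences starting at 14, novel_11410_x171, which carries A18C, had ratios of 3.44 in tGCI26h and 0.138 in HPC0h, and novel_2611_x694, its counterpart without the substitution, 2.81 and 0.494. The latter ended as a call under the other scalings, at 0.545 with TMM factors, 0.543 with median-of-ratios factors and 0.615 without the family of novel_88_x12235 in the totals. For novel_16529_x123, with A18C at start 15, the ratios were 5.71 in Sham, 5.43 in tGCI26h and 0.12 in HPC0h. Of these 5, 4 lie in the upstream block, and in 4 the opposed libraries were tGCI26h and HPC0h.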

How the results depend on the processing

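No paired analysis was possible because each group has 1 library. With 1 library per group no replicate could be left out either. Family ratios follow in the order tGCI26h over Sham, HPC0h over tGCI26h, HPC0h over Sham, then Sham, tGCI26h and HPC0h over IgG, where they moved beyond the interval of the value in the text. With TMM factors they were 1.14, 0.908 and, over IgG, 0.608, 0.692 and 0.629 (HPC0h over Sham kept within its interval). Median-of-ratios factors gave 1.13, 0.848, 0.958, and over IgG 0.654 in Sham and 0.626 in HPC0h. Leaving the family of novel_88_x12235 out of the totals reversed HPC0h over tGCI26h to 1.12, gave 1.43 for HPC0h over Sham and 0.495, 0.634 and 0.709 over IgG. The authors' normalized table gave 1.24 for tGCI26h over Sham, 0.957 for HPC0h over Sham and 0.607 for Sham over IgG. Without novel_7652_x249 the ratios were 1.19, 0.723 and 0.860, with 0.624 in Sham and 0.536 in HPC0h over IgG. Members listed in all 4 libraries gave 1.24 for tGCI26h over Sham, 0.960 for HPC0h over Sham, and 0.713 in tGCI26h and 0.554 in HPC0h over IgG. Joining by 24 bases left 90 members, without the upstream ones, and gave 1.24, 0.848, 1.05, 0.514, 0.639 and 0.542. Members inside no other sequence gave 1.19 and 0.819, and 0.667 in tGCI26h and 0.546 in HPC0h over IgG. Joining by 18 bases added 1 member.

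The family's share in Sham, tGCI26h, HPC0h and IgG was 2.08%, 2.58%, 1.99% and 3.42% in the authors' normalized table, 2.83%, 3.63%, 4.06% and 5.72% with totals without the family of novel_88_x12235, 1.49%, 1.86%, 1.57% and 2.91% with joining by 24 bases, and 2.27%, 2.71%, 2.22% and 4.06% for members inside no other sequence. IgG was highest in each. Start 114 held 15.5%, 26.9%, 34.2% and 26.5% of tags over members inside no other sequence, and 11.6%, 19.5%, 24.5% and 20.5% in the authors' normalized table.

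Members called, higher and lower together, numbered 42, 36, 32, 51, 44 and 50 in the order of comparisons above. The members measured numbered 72, 101, 99, 81, 94 and 103. At a minimum of 50 counts those called numbered 10, 16, 16, 33, 20 and 26, fewer because fewer are measured. Summed by first position they were 18, 18, 15, 19, 22 and 15, and over members inside no other sequence 16, 13, 14, 18, 18 and 17. Other scalings, no minimum and a ratio of 1.5 kept each count within 1.5 times. Shares of the whole table are not set beside these counts, so their changes are not read as particular to the members. Of the headline values under alternatives, among them the family ratios, 51 stayed within their intervals, 78 moved and 1 reversed. Of the other values under alternatives, 603 stayed within their intervals, 69 moved and none changed sign after a call. The cause of the moves was not tested, except where the alternative itself tests fewer sequences.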

Other observations

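The authors' normalized table lists 25 further sequences that share 20 bases with a member and are not in the raw table. Of these, 2 were listed in Sham, 12 in tGCI26h and 21 in HPC0h, with 20 in IgG, and their highest normalized values were 3, 4, 7 and 8. At the edge of the joining rule, novel_20247_x105 was held by the shortest shared stretch, 22 bases, and had 2 tags each in tGCI26h and IgG. Just outside, novel_16142_x126 shared 19 bases with a member and had 5, 4 and 4 tags in tGCI26h, HPC0h and IgG. After that the longest stretch shared with a member was 9 bases, in novel_19543_x108, which had 111, 161, 1226 and 647 tags in Sham, tGCI26h, HPC0h and IgG.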
